A study of Mus musculus with 2 samples.

Results

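Genes of macroautophagy were followed in RNA bound to tagged ribosomes from the ventral striatum of the mouse. The 38 genes were taken by name from a fixed list of autophagy genes, and all 38 were found among the 32531 gene symbols of the count files. The mice were untreated adult controls of the transgenic line Stard5-EGFP/Rpl10a JX5852, in which regulatory sequence of Stard5 drives ribosomal protein L10a fused to the green fluorescent protein EGFP. Both libraries, replicates 1 and 2 of the only group, hold RNA that came down with an antibody against EGFP (translating ribosome affinity purification, TRAP). No input RNA, other line or other condition was analysed here, so the values are levels in this fraction and not enrichments, and 1 transgenic line stands behind them. Whether the replicates stem from different animals or pools is not said in the labels, and their spread may therefore be technical.

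Autophagy wraps a portion of cytoplasm in a double membrane, the autophagosome, which then fuses with a lysosome. The ULK1 kinase complex starts the process, a class III PI3-kinase complex marks the site with phosphatidylinositol 3-phosphate, ATG9 and ATG2 supply lipid, and a conjugation system couples small ATG8 proteins (LC3 and GABARAP) to the membrane, where they hold cargo receptors such as p62. Neurons depend on this pathway to clear proteins and organelles from long-lived cells, and its loss in the mouse brain leads to protein inclusions and degeneration.

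The 2 libraries held 25830282 and 29574781 reads in genes. Levels are given as CPM, reads per 1000000 of those reads, in replicate 1 and replicate 2 in that order, and levels of different genes are compared as RPKM, the CPM per kilobase of annotated exon. Markers of spiny projection neurons, the output neurons of the striatum, were detected (1 CPM or more in both libraries) for 15 of 15 genes. Their summed level was 13524 and 11889 CPM, and their median 441 and 407 CPM. This list includes Gad1 (441 and 569 CPM) and Gad2 (2727 and 3192 CPM), which GABAergic interneurons express too. Markers of GABAergic interneurons (5 of 7 detected) summed to 111 and 169 CPM, and those of cholinergic interneurons (5 of 5) to 130 and 133 CPM. All 12 astrocyte markers were detected too, and their sum was 1169.9 and 3493 CPM. Of that sum, Slc1a2 alone held 741 and 2496 CPM, and the median astrocyte marker stood at 13.1 and 38.2 CPM. The 12 oligodendrocyte markers summed to 1042 and 1630.2 CPM, and the 10 microglial markers to 217 and 159 CPM. Detected for 4 of 8 genes, the endothelial and mural markers summed to 29.7 and 40.0 CPM. In such bulk RNA, fewer cells of a type and less RNA per cell cannot be told apart. Nor can RNA from tagged ribosomes be told apart here from RNA of other cells carried along with it.

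Of the 38 autophagy genes, 37 were detected, as were 12374 of the 32531 symbols. At 10 CPM or more in both libraries stood 31 of the 37 (83.8%, against 63.2% of all detected genes), and at 100 CPM or more 7 of them (18.9%, against 15.5%). Together the 38 genes held 84441 reads in replicate 1 and 92470 in replicate 2. That is 0.327% (Clopper-Pearson 95% interval 0.325 to 0.329) and 0.313% (0.311 to 0.315) of the reads in genes. The median of their mean levels was 45.5 CPM and 9.24 RPKM. Over all detected genes it was 23.1 CPM, and over the 11465 of them with an exon length matched by symbol it was 5.31 RPKM. Of the 37 autophagy genes, 27 lay above that median in CPM and 25 above that in RPKM. The reads carry no molecular identifiers and are not independent molecules, so these and all later intervals describe counting error only.

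**Figure D1:**
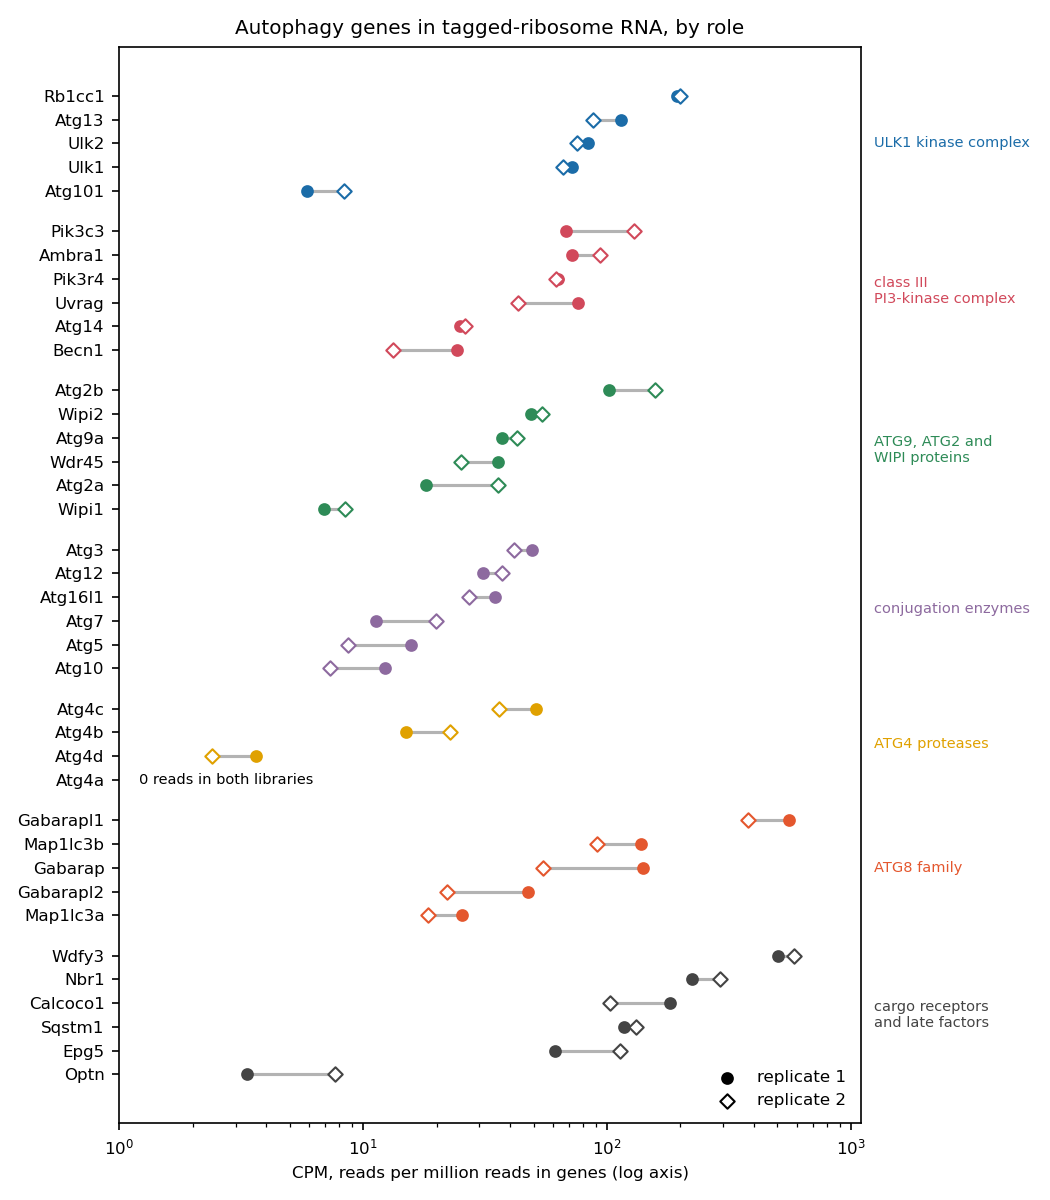
Level of each of the 38 autophagy genes in CPM (log axis), grouped by role; filled circles are replicate 1, open diamonds replicate 2, and the grey line joins the values of a gene. Wdfy3 and Gabarapl1 lie furthest to the right, Atg4d lies lowest of the detected genes at 3.64 and 2.40 CPM, and Atg4a had 0 reads.

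The results turn most on the ATG8 family, the ubiquitin-like proteins that are coupled to the growing membrane. To show how alike and how distinct these genes are, the end of each coding sequence is given here from GENCODE M21 transcripts of GRCm38, 5′ to 3′ on the coding strand, from 16 codons before the stop codon through the stop. Capitals mark the codon of the glycine that the ATG4 proteases expose for coupling to lipid.
Map1lc3a: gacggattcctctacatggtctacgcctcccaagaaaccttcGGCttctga
Map1lc3b: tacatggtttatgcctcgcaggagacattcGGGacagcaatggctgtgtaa
Gabarap: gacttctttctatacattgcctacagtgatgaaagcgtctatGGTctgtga
Gabarapl1: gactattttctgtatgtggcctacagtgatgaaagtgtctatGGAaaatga
Gabarapl2: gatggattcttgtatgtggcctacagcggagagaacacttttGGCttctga
Behind the glycine codon, 1 codon remains in 4 of the genes and 5 codons in Map1lc3b. Over the whole coding sequence, Map1lc3a and Map1lc3b were identical at 76.6% of 363 aligned bases and Gabarap and Gabarapl1 at 74.6% of 351, while the LC3 genes and the GABARAP genes matched each other at 53.0% to 62.7%. The longest identical run in any of the 10 pairs was 17 bases, so a longer stretch of coding sequence tells these genes apart.

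Gabarapl1 was the highest of all the autophagy genes per kilobase in both libraries, at 277 and 188 RPKM. This GABARAP-like gene (ENSMUSG00000030161.8) lies on chromosome 6 of GRCm38, from 129533160 to 129542346 on the plus strand, and it stood at 558 CPM in replicate 1 (exact Poisson 95% interval 549 to 567) and 379 CPM in replicate 2 (372 to 386). Its mean of 469 ± 127 CPM (SD, n = 2) ranked 315 among all genes. Of its exon bases, 28.3% overlap 1700101I11Rik on the opposite strand, which had 0.310 and 0 CPM. Gabarap (ENSMUSG00000018567.14; chromosome 11, 69991143 to 69994951, plus strand), the gene nearest to it in coding sequence, was next in mean level per kilobase, at 76.5 and 29.6 RPKM from 141 and 54.6 CPM. By RPKM, Gabarapl1 was 3.62-fold above Gabarap in replicate 1 and 6.36-fold above it in replicate 2. The gap therefore had the same direction in both libraries but not the same size.

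The other ATG8 genes were lower. Map1lc3b, which encodes the LC3 protein most used as a marker of autophagosomes, stood at 138 and 90.6 CPM. Gabarapl2 (also known as GATE-16) stood at 47.5 and 22.2 CPM, and Map1lc3a at 25.4 and 18.5 CPM. Which of these 3 was highest per kilobase depended on the length used: over all annotated exons their means were 15.2, 15.0 and 18.6 RPKM, with ranges that overlapped, while over the principal transcript alone Map1lc3b stood at a mean of 45.2 against 20.8 for Gabarapl2 and 19.7 for Map1lc3a. The annotated exons of Map1lc3b span 7517 bases, its principal transcript 2532. Gabarapl1 took 67.0% and 73.8% of the summed family RPKM in replicates 1 and 2, and 59.3% and 66.3% with principal transcripts, so it held the largest share under both lengths.

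All 5 ATG8 genes had a lower CPM in replicate 2 than in replicate 1, and the summed level of the family was 910 CPM in replicate 1 and 565 CPM in replicate 2. After scaling of library sizes (trimmed mean of M-values, TMM), the log2 ratio of replicate 2 over replicate 1 was -1.35 for Gabarap (exact 95% counting interval -1.43 to -1.26), -1.07 for Gabarapl2 (-1.21 to -0.94), -0.58 for Map1lc3b, -0.53 for Gabarapl1 and -0.43 for Map1lc3a. With total counts or DESeq2 size factors all 5 ratios were also below 0, but with the trend of the ratio on exon length removed Map1lc3a stood at 0.14. With that trend removed Gabarap was at -0.97 and Gabarapl2 at -0.80, both under 2-fold. Of all 31-base words of Gabarapl2, 15.3% recur in transcripts of other loci and 11.2% recur in Gm3724; the part of such shared sequence in its level or ratio was not tested. Ratios were also below 0 for 9 of 10 microglial markers (median -0.44) and 11 of 15 spiny projection neuron markers (median -0.21), whose part in the ATG8 ratios was not tested.

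**Figure D2:**
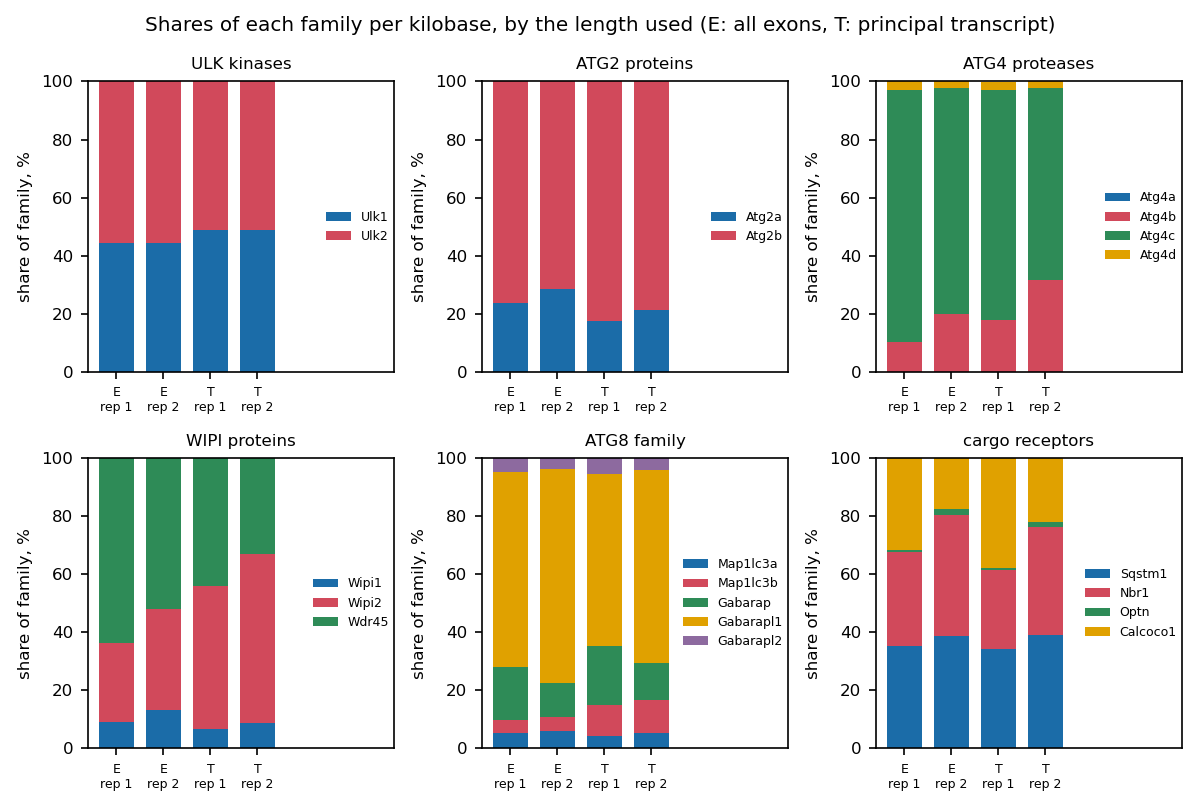
Share of each family's summed level per kilobase taken by each gene (percent, bars stacked to 100), in replicates 1 and 2, with the length of all annotated exons (E) or of the principal transcript (T). Gabarapl1, Atg4c and Atg2b take the largest share under either length. The shares of the ATG4 genes take Atg4a at 0 reads. Of the WIPI genes shown, which leave out Wdr45b, Wdr45 leads with all exons and Wipi2 with principal transcripts.

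At the start of the pathway, the scaffold gene Rb1cc1, which encodes FIP200 of the ULK1 complex, was the most read at 194 and 199 CPM. Atg13, which links the kinase to that scaffold, stood at 114 and 88.0 CPM. The kinase genes themselves were close to each other, with Ulk2 at 83.4 and 75.6 CPM and Ulk1 at 72.1 and 65.8 CPM. Ulk2 took 53.6% (52.1 to 55.2) and 53.5% (51.9 to 55.0) of the reads of the pair, 55.6% per kilobase of exon and 51.1% per kilobase of principal transcript. Atg101, the small partner of ATG13, was the lowest of the complex at 5.88 and 8.32 CPM. All 5 genes of this complex stayed under 2-fold between the libraries, with log2 ratios from -0.35 for Atg13 to 0.53 for Atg101. Most detected genes did so too, since 17.4% of them reached 2-fold.

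The class III PI3-kinase complex was uneven between its subunits. The catalytic subunit gene Pik3c3 (VPS34) stood at 67.8 and 129 CPM, and the regulatory subunit gene Pik3r4 (VPS15) at 63.1 and 61.8 CPM. Ambra1, a scaffold that binds Beclin 1, was at 72.2 and 93.9 CPM. Becn1, which encodes Beclin 1 itself, stood at 24.2 and 13.3 CPM, and its mean of 2.66 RPKM was the lowest of the complex per kilobase. Atg14, the subunit that directs the complex to autophagosome formation, was at 24.9 and 26.1 CPM. Uvrag, the alternative partner found in the complex that acts at endosomes, stood at 76.1 and 43.2 CPM. Per kilobase of all exons its order with Atg14 changed between the libraries, with Uvrag at 8.42 and 4.79 RPKM and Atg14 at 5.76 and 6.04 RPKM. With principal transcripts Uvrag was above Atg14 in both, at 14.8 and 8.39 against a mean of 6.84 for Atg14. The ratios within the complex went in opposite directions, from -0.84 for Becn1 and -0.79 for Uvrag to 0.96 for Pik3c3. None reached 2-fold, where 17.4% of all detected genes did. For Becn1, 43.9% of the exon bases overlap Cntd1 on the opposite strand, which had 3.52 and 0.879 CPM.

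Among the genes that bring lipid and read the phosphatidylinositol 3-phosphate signal, the lipid transfer protein gene Atg2b had the most reads, at 102 and 158 CPM. Its paralogue Atg2a stood at 18.2 and 35.7 CPM. Atg2b took 76.3% and 71.6% of the pair per kilobase of exon in replicates 1 and 2, so the order held in both. Atg9a, the scramblase that seeds the membrane, was at 37.1 and 42.6 CPM, with 32.6% of its exon bases shared with other gene models, mainly Gm29253 on the same strand. Of the WIPI proteins, which bind the lipid signal, Wipi2 had 48.8 and 54.0 CPM, Wdr45 (WIPI4) 35.9 and 25.3 CPM and Wipi1 6.93 and 8.45 CPM. Among these WIPI genes, Wdr45 led per kilobase of all exons, with shares of 63.6% and 52.1% against 27.2% and 34.9% for Wipi2. With principal transcripts Wipi2 led, at 49.2% and 58.1% against 44.1% and 33.2% for Wdr45. Wipi1 was the lowest of them on both lengths. Wdr45b, of the same family but not among the members, is left out of these shares. It had 31.4 and 25.3 CPM and a mean of 6.22 RPKM over all exons.

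The 6 genes of the conjugation system summed to 154 and 142 CPM, and the 5 ATG8 genes to 910 and 565 CPM. Per kilobase, the median of the mean levels was 4.81 RPKM for the 6 genes and 18.6 RPKM for the ATG8 genes. Atg3, the E2-like enzyme that places ATG8 on lipid, stood at 49.4 and 41.7 CPM, and Atg12, the ubiquitin-like partner of ATG5, at a mean of 34.1 ± 4.42 CPM (SD, n = 2), higher in replicate 2. Atg16l1, which sets where the conjugate forms, had 34.6 and 27.1 CPM. The E1-like enzyme gene Atg7 was at 11.3 and 19.8 CPM, Atg5 at 15.7 and 8.69 CPM, and the E2-like enzyme gene Atg10 at 12.3 and 7.34 CPM. The highest and lowest of the 6 means per kilobase were 14.4 RPKM for Atg3 and 2.23 RPKM for Atg7, which is the longest of these last 3 genes in annotated exons. Atg5 was above Atg7 per kilobase of all exons, at 6.68 and 3.69 against 1.62 and 2.84 RPKM. With principal transcripts Atg7 was the higher one in replicate 2, at 5.27.

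The ATG4 proteases cut new ATG8 proteins and later remove them from membranes. Atg4c had 51.2 and 36.2 CPM, Atg4b 15.0 and 22.7 CPM and Atg4d 3.64 and 2.40 CPM. Atg4c thus led with 86.8% and 77.8% of the family's summed RPKM, and with 79.3% and 66.1% when principal transcripts were used. These shares take Atg4a at 0 reads, a count whose limits are given below. Atg4a (ENSMUSG00000079418.3; chromosome X, 140956907 to 141164270, plus strand) had no read in either library. Its exact upper limit from counting is 0.143 CPM in replicate 1 and 0.125 in replicate 2. The intronless copy Atg4a-ps has a coding sequence as long as that of Atg4a, 1188 bases, which differs from it at 7 positions and is identical over a run of 506 bases. Coding bases 101 to 190, counted from 1 at the A of the start codon, are shown for both because they hold 3 of the 7 differences, in capitals (C112T, T156C and G180A, Atg4a first).
Atg4a: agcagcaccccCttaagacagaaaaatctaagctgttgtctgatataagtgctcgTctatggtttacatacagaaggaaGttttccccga
Atg4a-ps: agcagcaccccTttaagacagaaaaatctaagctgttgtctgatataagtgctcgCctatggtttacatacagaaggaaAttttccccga
Atg4a-ps was not among the symbols of the count files. Of the 31-base words of all Atg4a transcripts, 60.8% also occur in Atg4a-ps and the other 39.2% do not recur at another locus of the annotation. The count files list reads with more than a single alignment apart from genes, at 27.9% (replicate 1) and 13.6% (replicate 2) of all their counts. A read of this kind may be counted more than 1 time there, so these need not be shares of reads. Whether reads of Atg4a were among those with several alignments was not tested, and a 0 here does not show that the gene was not expressed.

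Genes of cargo selection and of the late steps were among the most read. Wdfy3 (ENSMUSG00000043940.15; chromosome 5, 101832956 to 102069921, minus strand), which encodes ALFY, a very large scaffold that brings protein aggregates to the autophagosome, had 502 CPM in replicate 1 (494 to 511) and 586 CPM in replicate 2 (577 to 594), a mean that ranked 249 among the symbols. The receptor genes Nbr1 and Sqstm1 (p62), which bind ubiquitin on cargo, stood at 222 and 291 CPM and at 118 and 131 CPM. Calcoco1, a receptor of the endoplasmic reticulum and Golgi apparatus, had 181 and 102 CPM. Per kilobase the means of Nbr1, Sqstm1 and Wdfy3 were 37.4, 37.1 and 35.4 RPKM, and neither neighbouring pair in that order was separated by the spread of its libraries. Over principal transcripts Sqstm1, at 61.1, came before Nbr1, at 53.6. Calcoco1 lay below all 3 in each library with all exons, but above all 3 in replicate 1 with principal transcripts.

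The tether gene Epg5, which joins autophagosomes to late endosomes and lysosomes, had 61.1 and 113 CPM. Optn (ENSMUSG00000026672.11; chromosome 2, 5020642 to 5064051, minus strand), whose product optineurin serves in the removal of damaged mitochondria, was the lowest receptor, at 3.33 CPM in replicate 1 (2.66 to 4.11) and 7.64 CPM in replicate 2 (6.68 to 8.71), from 86 and 226 reads. Optn thus took 0.635% (0.508 to 0.783) and 1.44% (1.26 to 1.63) of the reads of the 4 receptor genes. Its exons overlap another gene model by 1.95% of their bases.

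Ordered by mean RPKM, the detected genes formed a gradual series from Gabarapl1 down to Atg4d at 0.416 RPKM. Of the 36 pairs of neighbours in that order, 4 were apart in the sense that the lower library of the higher gene exceeded the higher library of the lower gene. These were Gabarapl1 over Gabarap, Wdfy3 over Calcoco1, Pik3r4 over Atg14 and Optn over Atg4d. With principal transcripts Wdfy3 and Calcoco1 were not apart, at 35.2 and 41.0 against 64.0 and 36.3. Among all 666 pairs of detected members 554 (83.2%) were apart, so genes far from each other in the order were separated and neighbours mostly were not. Of the 10 highest genes with all exons, 9 were also among the 10 highest with principal transcripts and 8 without any length correction.

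Between the libraries, 4 of the 37 detected genes reached a 2-fold ratio, 2 in each direction. The share of all 12374 detected genes that reached it was 9.57% toward replicate 2 and 7.78% toward replicate 1 (17.4% in all), against 5.41% of the autophagy genes each way (10.8% in all). With 1 library on each side the ratio has no replicate check, and it measures spread within a group, not an effect. Higher in replicate 2 were Optn, with a log2 ratio of 1.22 (0.86 to 1.60), and Atg2a (chromosome 19, 6241668 to 6262335, plus strand), which lay right at the threshold (0.84 to 1.16) and fell below it, at 0.97, with total counts. Gabarap and Gabarapl2 were higher in replicate 1, as given above. Just under the threshold stood Pik3c3 at 0.96 and Epg5 at 0.91, and on the other side Becn1 at -0.84 and Atg5 at -0.83.

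**Figure D3:**
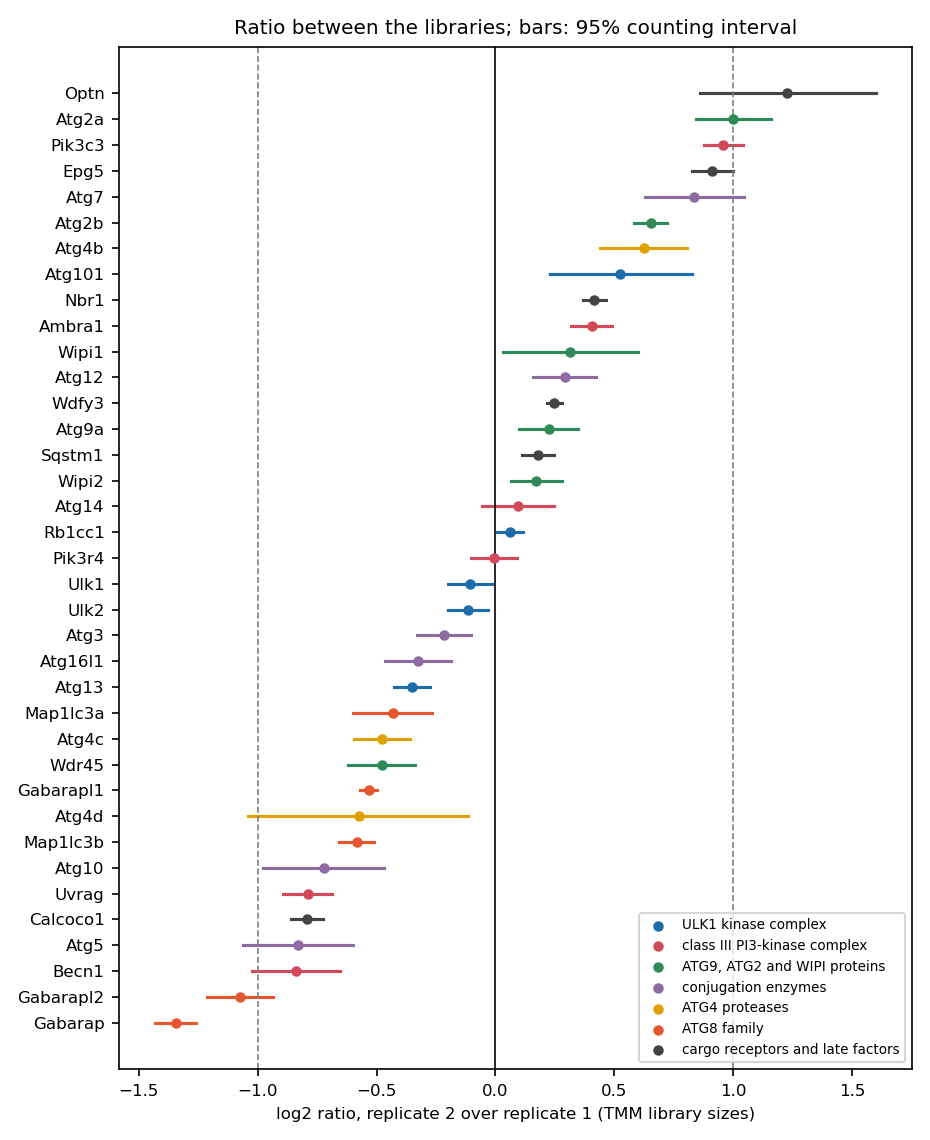
Log2 ratio of replicate 2 over replicate 1 for the 37 detected autophagy genes, in order, with exact 95% counting intervals as bars and colours for roles; dashed lines mark 2-fold. The 5 ATG8 genes all lie left of 0, and 35 of the 37 intervals do not reach 0.

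The median ratio of the autophagy genes was -0.00 on the log2 scale, as was that of all detected genes, and the median size of the ratio regardless of sign was 0.48 against 0.45. Ratios above 0 numbered 18 and those below 0 numbered 19, and 49.8% of all detected genes had a ratio above 0. Counting error covered few of the differences: the interval reached 0 for Atg14 and Pik3r4 and for none of the other 35. By role, the ATG9, ATG2 and WIPI genes (5 of 6) and the cargo and late genes (5 of 6) lay mostly above 0. The genes of the conjugation system lay below 0 for 4 of 6. Astrocyte markers, with 9 of 12 past 2-fold as higher in replicate 2 and none as higher in replicate 1, and oligodendrocyte markers, with 5 of 12 and none, moved the same way as Optn and Atg2a. Ratios also lay above 0 for 5 of 5 detected oligodendrocyte precursor markers (median 0.83) and 5 of 5 GABAergic interneuron markers (0.53). The same held for 3 of 3 glutamatergic neuron markers (0.84) and 4 of 5 cholinergic interneuron markers (0.38). Endothelial and mural markers were split, with 2 above and 2 below 0. Most microglial and spiny projection neuron markers lay below 0, as given above. The part of any of these cell types in the ratios was not tested.

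Exon length moved with the ratio. Among the 7 detected autophagy genes with under 3000 bases of annotated exon, 1 ratio lay above 0 (Atg101) and the median was -0.72, while the 2660 detected genes of that length had a median of -0.34. The 12 genes of 3000 to 6000 bases had a median of -0.01 beside -0.05 for 4629 genes. The 18 genes of 6000 bases or more had a median of 0.21 beside 0.17 for 4176 genes, and 11 of the 18 lay above 0. Across the 37 genes the Spearman correlation of ratio and exon length was 0.35, and across all 11465 detected genes with a length it was 0.29. These points come from the same pair of libraries and are a description across genes. With the trend removed, Optn alone passed 2-fold, at 1.32. Of the 11465 genes, 9.27% then did so toward replicate 2 and 5.64% toward replicate 1.

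**Figure D4:**
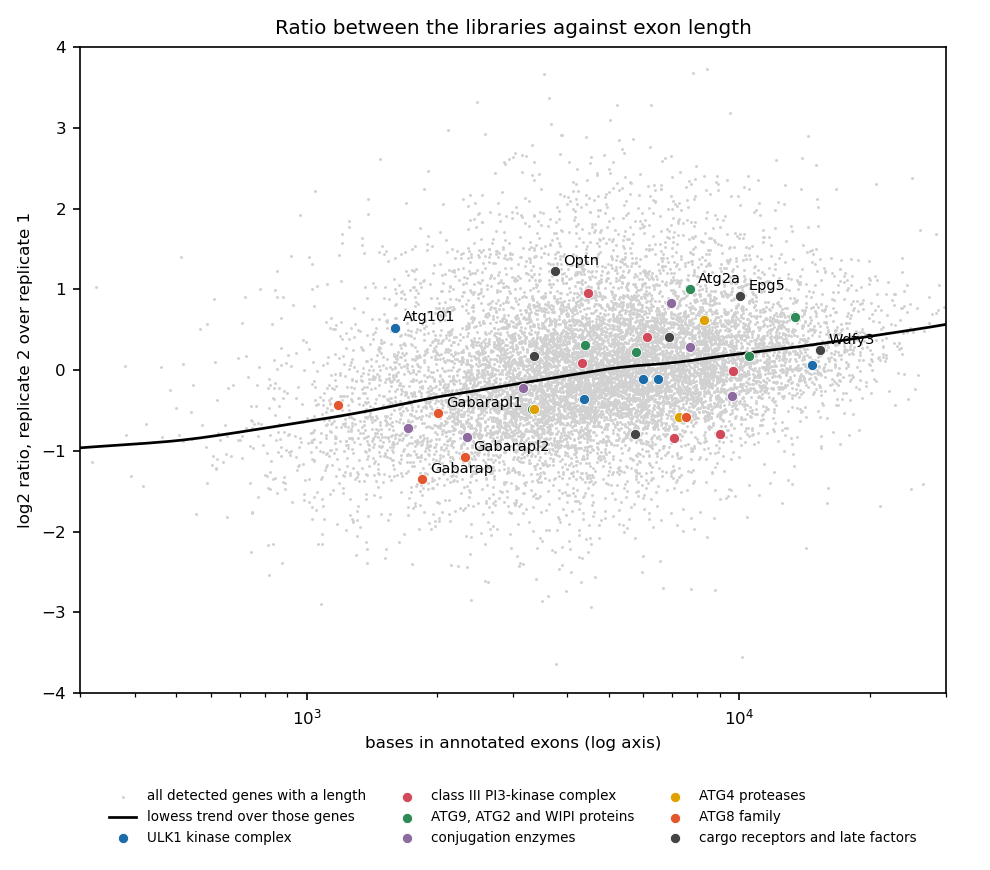
Log2 ratio of replicate 2 over replicate 1 against the bases in annotated exons (log axis) for all detected genes with a length (grey, inside the plotted range), their lowess trend (black line) and the 37 autophagy genes in the colours of their roles. The line rises with length, and the short genes Gabarap and Gabarapl2 lie below it while Optn lies above it.

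A larger set of genes around the pathway was read from 4 lists. Of 57 listed names 54 were found and 48 detected, with a median of 46.6 CPM, beside 45.5 CPM for the autophagy genes. Past 2-fold were 3 of the 48 in each direction, which is 6.25% each way beside the 9.57% (toward replicate 2) and 7.78% (toward replicate 1) of all detected genes. Upstream, Mtor, the kinase that restrains autophagy when nutrients are plentiful, had 133 and 222 CPM, and Rheb, the small GTPase that activates it, had 168 and 77.1 CPM with a log2 ratio of -1.10. Tfeb, a transcription factor for lysosomal and autophagy genes, was not detected by the 1 CPM rule, at 0.929 and 0.981 CPM from 24 and 29 reads. Its relative Mitf stood at 5.46 and 15.0 CPM (1.48) and Zkscan3, a repressor of such genes, at 3.99 and 8.22 CPM (1.07). These 3 transcription factor genes had means from 0.168 to 1.65 RPKM, below the median of 6.16 RPKM over the 11 detected genes of the list. Tfe3, of the same family as Tfeb and Mitf, was higher than these 3, at 33.6 and 27.2 CPM (3.28 RPKM on average).

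In the list of other core genes, the sorting nexin gene Snx4 led by mean CPM at 99.2 and 74.7 CPM, followed by the Beclin 1 inhibitor Bcl2 at 77.7 and 53.5 CPM, though Snx30 and Vmp1 were above Bcl2 in replicate 2. Vmp1, a scramblase of the endoplasmic reticulum, was higher in replicate 2 (24.8 and 60.6 CPM, 1.32), and Nrbf2, a subunit of the PI3-kinase complex, in replicate 1 (9.56 and 3.42 CPM, -1.46), as was Atg9b (3.60 and 1.76 CPM, -1.01). Becn2 had 0 reads. Of other selective receptors, Rtn3, a receptor for tubules of the endoplasmic reticulum, led at 836 and 970 CPM, followed by Tax1bp1 at 264 and 350 CPM, and none of 15 detected genes passed 2-fold, where 17.4% of all detected genes did. Calcoco2 had 0 reads in both libraries. Of genes for fusion with lysosomes, Rab7 led at 814 and 464 CPM and Vps41 followed at 192 and 194 CPM, with none of 12 past 2-fold beside the same 17.4%, while Vamp7 had 0 reads. No exon length was matched by symbol for Vamp7 or Becn2. As for Atg4a, these counts of 0 do not show that the genes were not expressed.

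Lysosomal genes, where the pathway ends, were detected for 30 of 31 names with a median of 77.8 CPM and 20.2 RPKM, against 45.5 CPM and 9.24 RPKM for the autophagy genes. The proton pump subunit genes Atp6v1a and Atp6v1d led by mean CPM, at 501 and 680 CPM and at 647 and 395 CPM, and Galns was lowest at 1.36 and 0.473 CPM. Lamp2 and Cd63, membrane proteins of late endosomes and lysosomes, were past 2-fold toward replicate 2, at 1.08 and 1.61, and none of the 30 was toward replicate 1. Of all detected genes, 9.57% were past 2-fold toward replicate 2 and 7.78% toward replicate 1. The difference between the lists was not tested.

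A promoter table from RefSeq (GRCm38.p6, 250 bases before to 50 after each start) held 30 of the 38 genes. It was searched on both strands for TCACGTGA, the core of the CLEAR element bound by the TFEB family, for the full CLEAR palindrome, which adds a G before and a C after that core, and for CACGTG, the E-box within both. None of the 33 promoters of these genes held the full palindrome, which 0.326% of all 32851 promoters held. The core was found in 1 promoter, that of Atg3, where 0.974% of all promoters had it, and CACGTG in 4 of 33 (12.1%; Atg3, Atg5, Atg7 and Atg14) against 7.15% of all. The Atg3 match is shown, with the core in capitals, from chr16:45158746-45158775 on the plus strand, where the core begins at position -72 from the start.
Atg3: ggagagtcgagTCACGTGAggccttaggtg
A match of letters is a description, and binding was not measured here.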

How the data were processed

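TRAP RNA of 2 libraries from 1 group was sequenced. The authors deposited raw counts for each gene symbol. STAR 2.0.0e, HTSeq and mm10 (GRCm38) are named in the submitters' processing notes; the sources used here give no annotation, strand setting or filter. Without a known strand setting, reads of overlapping and antisense genes cannot be told apart.

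The 6 lines naming no gene were left out. Of all counts in replicates 1 and 2, reads outside genes were 22.8% and 31.0%, and multiple alignments 27.9% and 13.6%. Ambiguous reads were 1.84% and 2.08%, and the rest of these lines held 0. CPM used reads in genes (25830282 and 29574781). Detection required 1 CPM in both libraries. Ratios used TMM sizes of edgeR 4.0.16 over detected genes, with exact binomial intervals. The step was tested on simulated counts with planted changes and counting error, but without the further spread between real libraries. Exon lengths, principal transcripts, overlaps and 31-base words came from GENCODE M21, matched by symbol (92.7% of detected genes). No test between conditions was possible. Named genes are all 38 members and, from each other list, the 2 highest, the lowest and any past 2-fold, except that some lysosomal results are not reported here. Members and lists were chosen with earlier results of these data known.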

Additional observations from a re-analysis of the deposited data

How the results depend on the processing

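No paired analysis was possible because both libraries belong to 1 group. At 1.5-fold, 7 autophagy genes passed in each direction in place of 2 (over all detected genes 19.5% higher in replicate 2 and 19.0% higher in replicate 1). With total counts 1 gene was higher in replicate 2, since Atg2a left; with the length trend removed, 1 was higher in replicate 2 and 0 in replicate 1. Without the genes of shared sequence (over 20% of exon bases or 10% of 31-base words), chosen after seeing the data, 1 was higher in replicate 1, since Gabarapl2 is among them. A binomial test of the reads beside the 2-fold rule gave 2 in each direction, as did the other filters on low counts and DESeq2 size factors. The median log2 ratio ranged from -0.08 to 0.08, and 35 to 37 genes were detected. The median level is 9.24 in RPKM.

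Shares per kilobase moved with the length used. With the longest transcript, Ulk2 took 51.1%, Atg2b 80.7% and Atg4c 72.7%. With the principal transcript, added after seeing the data, Ulk2 took 51.1%, Atg2b 80.7%, Atg4c 72.7%, Wdr45 38.6% and Gabarapl1 62.8%. Without length correction Ulk2 took 53.5%, Atg2b 83.2%, Atg4c 66.2%, Wdr45 34.0%, Gabarapl1 64.2% and Nbr1 48.6%. Leaving out 1 replicate gave 55.5% to 55.7% for Ulk2, 71.6% to 76.3% for Atg2b, 77.8% to 86.8% for Atg4c, 52.1% to 63.6% for Wdr45, 67.0% to 73.8% for Gabarapl1 and 32.4% to 41.8% for Nbr1. Leaving the 20 highest symbols out of the totals raised all detected levels, by construction. With 2 libraries, each SD rests on 1 difference.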
